A study of Mus musculus with 6 samples.

Results

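The bone morphogenetic protein (BMP) receptor pathway of endothelial cells and its ID target genes were examined in RNA-seq counts of mouse pulmonary microvascular endothelial cells. The 10 genes were chosen by name from a deposited table of 55232 features: the type I receptor gene Acvrl1, which encodes ALK1, the type II receptor gene Bmpr2, the co-receptor gene Eng, the ligand gene Bmp6, the SMAD genes Smad1, Smad5 and Smad6, and the ID genes Id1, Id2 and Id3. All 10 were in the table, and 9 of them passed the filter on low counts and were tested. The endothelial cells carry a cell line label and were not treated themselves. They had spent 12 h in the bottom chamber of a co-culture with TCMK-1, a tubular epithelial line from mouse kidney, and the 2 groups differ in what was done to that line. The TCMK-1 partners of the 3 control samples were untreated, and those of the 3 repletion samples had lost their ATP and then recovered it. The labels name no passage, clone or strain of the endothelial line and do not say that the samples of a group were separate cultures, so the spread behind the p-values is that between samples and may be technical.

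In endothelium, the circulating ligands BMP9 and BMP10 bind ALK1 with BMPR2, and endoglin, the product of Eng, presents them to that complex. The receptors phosphorylate SMAD1, SMAD5 and SMAD9, which enter the nucleus with SMAD4 and switch on Id1, Id2 and Id3 and the inhibitory SMAD genes Smad6 and Smad7. ID proteins lack a DNA-binding region and hold E proteins, basic helix-loop-helix (bHLH) factors, away from DNA. Loss of ENG or ACVRL1 causes hereditary haemorrhagic telangiectasia in people, and loss of BMPR2 causes heritable pulmonary arterial hypertension, a disease of lung vessels. The counts measure RNA and not SMAD phosphorylation.

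The libraries held 15582349 to 17817618 counts. Of 16 endothelial marker genes, 15 were tested, and Pecam1 and Cdh5 had a mean of 748 and 557 CPM (counts scaled to a common library total). Of these 15, 7 rose, among them Clec14a (1.95), the transcription factor genes Fli1 (1.53) and Erg (1.06), Robo4 (0.64) and Tek (0.58), and Esam (-0.46) and Vwf (-0.45) fell. Their summed level was 2330 to 2590 CPM in control and 2480 to 2840 CPM in the repletion group. Cldn5, a tight junction gene of many endothelia, had 3 counts in 1 repletion library and none in the others. Of 17 kidney tubular markers, 11 were below 0.5 CPM in every library and Epcam, Krt18, Slc34a1 and Umod had no count at all. The sum of the 17 was 152 to 221 CPM in control and 135 to 178 CPM in the repletion group, mostly Lcn2 with a mean of 148 CPM. Of 5 tested, Lcn2 fell by 0.55 and Cubn rose by 1.97 on the log2 scale. The summed level of 7 lymphatic endothelial markers was 78.2 to 103 CPM in control and 123 to 138 CPM in the repletion group, mostly Flt4, with Ccl21a and Mmrn1 at 0 counts, and of 4 tested, 3 rose and 1 fell. That of 10 leukocyte markers was 379 to 417 and 223 to 313 CPM, mostly Cd68, which fell by 0.63, with Itgam and Cd3e at 0. Markers of fibroblast and mural cells summed to 20.9 to 30.7 CPM over all libraries, with Lum at 0, and those of lung epithelium to at most 0.740 CPM, with Sftpc and 4 others of 8 at 0. For comparison, 20.5% of all tested features rose and 19.2% fell. The part of these marker differences in the results that follow was not tested. In a bulk sample, fewer cells of a type and less RNA per cell cannot be told apart.

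The receptor genes Eng, Bmpr2 and Acvrl1 and the SMAD genes Smad5 and Smad6 were higher after co-culture with ATP-repleted tubular cells, by 1.39-fold to 1.71-fold. Id1, Id2 and Smad1 did not pass the test, with fold changes of 0.932 to 1.04, and Id3, up 1.36-fold, fell just short of it. Bmp6 had 1 count in all 6 libraries. Thus 5 of the 9 tested genes rose and none fell at an adjusted p under 0.05 in edgeR's quasi-likelihood test. Id1 had the lowest value, with an unadjusted edgeR p of 0.504. Over all 13804 tested features, 39.7% passed in either direction, 20.5% as rises and 19.2% as falls. The 6 values of a gene did not overlap between groups for the same 5 genes, all with repletion above control, and for 50.3% of all tested features, 25% with repletion above. After removal of the trend of each library with feature length and GC content, 2203 features rose and 3461 fell, against 2830 and 2654 without that step. The median log2 fold change was 0.47 over the 9 genes and 0.00 over all tested features. The rise of Bmpr2 was not called after removal of that trend, with a log2 fold change of 0.11 and an edgeR adjusted p of 0.468.

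**Figure D1:**
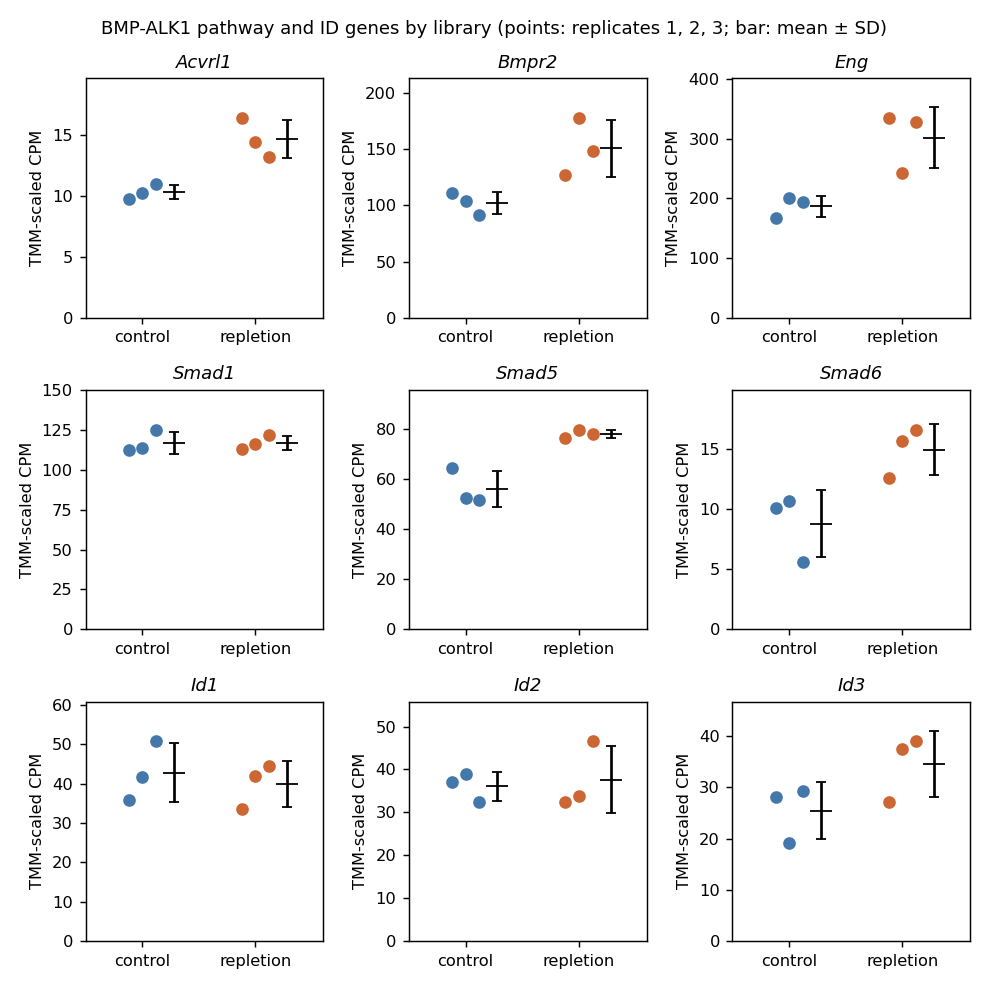
CPM scaled by TMM factors (trimmed mean of M-values) for the 9 tested genes, with 1 point per library, control in blue and repletion in orange, and a bar for the mean ± SD of 3 libraries. Acvrl1, Bmpr2, Eng, Smad5 and Smad6 had all repletion values above all control values, whereas the groups overlapped for Smad1, Id1, Id2 and Id3.

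Promoter sequences show where elements that SMAD proteins bind lie near these genes. Of the 10 genes, 8 matched a RefSeq promoter window in GRCm38.p6 that spans 250 bases before to 50 bases after a transcription start, and Acvrl1 and Id1 did not match. The windows were searched on both strands for GTCTAGAC, the palindromic SMAD-binding element, and for GGCGCC, a GC-rich element of SMAD1 and SMAD5. GTCTAGAC was in the window of Smad6, from position -4 to position 4 around the start, and in 0.213% of all 32851 windows of the same length. GGCGCC was in windows of Bmpr2, Id2 and Smad5 and in 11.9% of all windows. That share is per window, and a gene such as Smad5 can have several. Of the bases before the start, all 250 for Bmpr2 and 161 for Id2 lie in annotated exons of the same gene. Only 3 of the 10 genes had a window with no annotated exon before the start. The E-box CANNTG, the site of bHLH factors, was in 72.3% of all windows. Smad6 is shown with GTCTAGAC in capitals (chr9:64022056-64022309, minus strand), and Eng, which had neither SMAD element in its window, for comparison (chr2:32646345-32646598, plus strand). Both run 5′ to 3′ and end 4 bases after the start.
Smad6: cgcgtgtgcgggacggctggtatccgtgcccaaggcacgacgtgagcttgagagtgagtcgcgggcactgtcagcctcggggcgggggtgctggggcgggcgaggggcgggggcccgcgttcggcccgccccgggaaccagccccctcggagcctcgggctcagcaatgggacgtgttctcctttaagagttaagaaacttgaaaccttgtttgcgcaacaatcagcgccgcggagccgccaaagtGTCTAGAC
Eng: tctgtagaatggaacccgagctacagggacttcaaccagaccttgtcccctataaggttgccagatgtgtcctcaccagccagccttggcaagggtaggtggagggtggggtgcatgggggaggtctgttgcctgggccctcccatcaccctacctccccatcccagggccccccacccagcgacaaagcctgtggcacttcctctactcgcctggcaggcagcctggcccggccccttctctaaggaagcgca
A match of letters is a description of the sequence and not evidence of binding in these cells.

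Eng, the co-receptor gene, had the highest mean level per length of the 9 tested genes. Eng (ENSMUSG00000026814, chromosome 2, 32646595 to 32682669, plus strand, GRCm38) stood at 167, 200 and 193 TMM-scaled CPM in the control libraries and at 334, 243 and 329 in the repletion libraries. The groups did not overlap, and repletion replicate 2 was the lowest of its group. The means were 187 ± 17.5 and 302 ± 51.0 CPM (SD, n = 3), and Eng rose by 0.69 ± 0.12 (SE) on the log2 scale (edgeR adjusted p of 3.32e-04). The call held under all 16 alternatives run, with values of 0.60 to 0.82. On the opposite strand Eng overlaps Fpgs, which had 323 to 571 counts per library against 2625 to 5722 for Eng and a log2 fold change of -0.20 with an edgeR adjusted p of 0.350. Whether the counting used strand is not given in the sources used here. The longest Eng transcript shared no stretch of at least 100 bases with another gene's transcripts at 95% identity.

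Bmpr2 (ENSMUSG00000067336, chromosome 1, 59763400 to 59879014, plus strand) encodes the type II receptor that phosphorylates ALK1. It stood at 111, 104 and 91.5 CPM in control and at 127, 177 and 148 CPM in the repletion group. All 3 repletion values were above all control values. The means were 102 ± 9.79 and 151 ± 25.4 CPM (SD, n = 3), and Bmpr2 rose by 0.56 ± 0.13 (SE; edgeR adjusted p of 0.00184). The deposited length of Bmpr2 is 17983 bases. Of 1181 tested features over 10 kb, 43.4% rose and 8.30% fell, with a median log2 fold change of 0.31, against 10.8% and 19.9% of 2866 features under 2 kb, with a median of -0.14.

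Acvrl1 (ENSMUSG00000000530, chromosome 15, 101128522 to 101145336, plus strand), the gene of ALK1, had the lowest mean level per length of the 9 tested genes. Its counts were 154, 161 and 190 in control and 281, 230 and 221 in the repletion group, or 9.80, 10.2 and 11 CPM against 16.4, 14.5 and 13.2 CPM. The groups did not overlap. Acvrl1 rose by 0.51 ± 0.18 (SE), and its edgeR adjusted p of 0.0283 was the highest of the 5 calls. It was not called without control replicate 1, 2 or 3 (adjusted p of 0.0855, 0.0877 and 0.0556 in edgeR) or without repletion replicate 1 (0.0977), with values of 0.42 to 0.55. It also missed the threshold with no filter (0.0751) and with a term for the replicate number (0.0561), and its adjusted p ran from 0.0165 to 0.0977 across 16 alternatives.

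The other receptor genes of the family showed which partners these cells express. Of 12 tested receptors and co-receptors other than Acvrl1, Bmpr2 and Eng, 4 rose, 1 fell and 7 did not pass. Their median log2 fold change was 0.13, and over all tested features 20.5% rose and 19.2% fell. Tgfbr2, the type II receptor gene for TGF-beta, stood at 90.5, 92.6 and 92.4 CPM in control and at 139, 166 and 175 CPM in the repletion group, and rose by 0.80 ± 0.11. The activin type II receptor gene Acvr2a, whose product also takes part in BMP signalling, went from 31.9 ± 2.15 to 49.4 ± 3.88 CPM (SD, n = 3) and rose by 0.63. Acvr1, the gene of the type I receptor ALK2, rose by 0.40 with an edgeR adjusted p of 0.0193. It was not called without control replicate 1 (0.0798), control replicate 2 (0.0928) or repletion replicate 3 (0.101), with 0.34 in each case. Bambi, a decoy receptor gene without a kinase, rose by 0.62 (0.0341 in edgeR), but not without control replicate 1 (0.48, 0.131) or 2 (0.63, 0.0769) or repletion replicate 2 (0.55, 0.0800) or 3 (0.51, 0.144). Bambi also missed the threshold in DESeq2 (0.0575), with no filter (0.0534) and without the length and GC trend (0.0578), and passed under 9 of 16 alternatives. Fkbp1a, whose product FKBP12 holds type I receptors inactive, fell by 0.41, and was not called without repletion replicate 3 (-0.36, edgeR adjusted p of 0.0694).

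The type I receptor genes Bmpr1a and Bmpr1b, the receptors for BMP2 and BMP4 in many tissues, had 1 and 4 counts in all, each in a single repletion library, and 0 counts in control. A count of 0 over the 3 control libraries allows up to 0.0601 CPM (3 counts of their summed total), for counting error only. Of the 5956 bases of the longest Bmpr1a transcript, 290 are identical to Gm17110, an antisense gene that overlaps Bmpr1a. Reads in those 290 bases could be lost to that gene. Among 7 type I receptor genes of the family, Acvrl1 made up 7.25% to 8.20% of the summed CPM per kb in control and 8.80% to 11.7% in the repletion group, and Acvr1 20.3% to 24.7% and 23.7% to 28.4%. Among 4 type II receptor genes, Bmpr2 made up 22.9% to 26.3% and 21% to 25.6%, while their summed level went from 22.2 to 23.5 CPM per kb in control to 32.4 to 39.2 CPM per kb. The share of Acvrl1 thus did not overlap between groups and that of Bmpr2 did. A share also depends on the other genes of the sum. Tgfbr1, another of the 7, made up 37.8% to 44.2% in control and 29.7% to 37.9% in the repletion group.

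**Figure D2:**
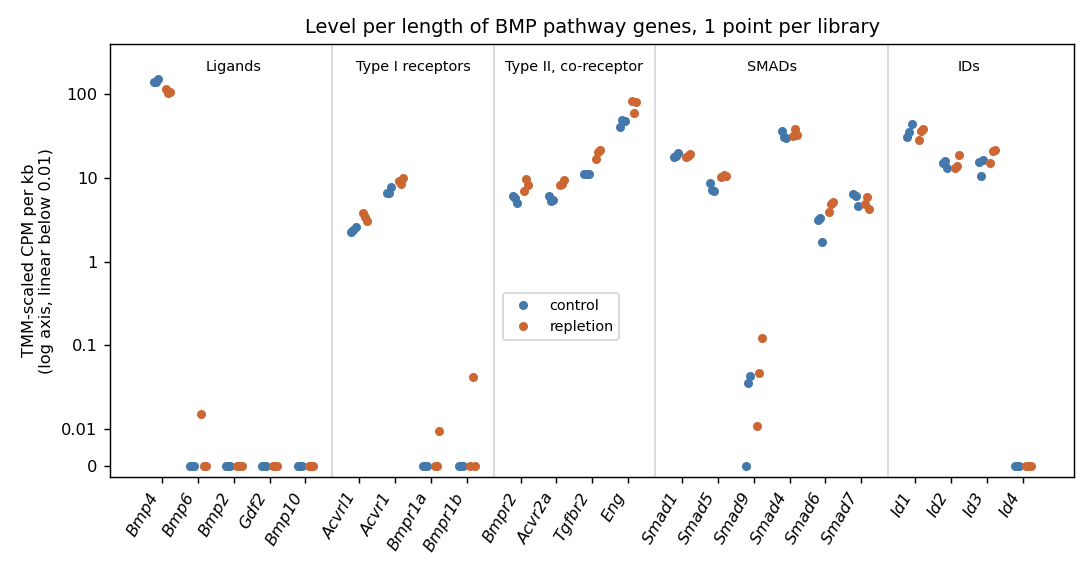
TMM-scaled CPM per kb of deposited feature length for ligand, receptor, SMAD and ID genes on a log axis that is linear below 0.01, with 1 point per library, control in blue and repletion in orange. Bmp4 was near 100 CPM per kb, Acvrl1 and Acvr1 were the plotted type I receptor genes above 1, and Bmp6, Bmp2, Gdf2, Bmp10, Bmpr1a, Bmpr1b and Id4 were at or near 0.

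Few ligand genes were above the filter on low counts. Bmp6 (chromosome 13, 38345107 to 38500302), which endothelial cells of the liver make to set iron uptake, had 0 counts in every control library and 1, 0 and 0 in the repletion libraries. Gdf2 and Bmp10, the genes of BMP9 and BMP10, and Bmp2 had 0 counts in all 6. Of 15 further BMP and activin ligand genes, 3 were tested, of which 2 rose and 1 fell. The shares of all tested features were 20.5% and 19.2%. Bmp4 stood at 315, 316 and 340 CPM in control and at 261, 236 and 241 CPM in the repletion group. The groups did not overlap, and Bmp4 fell by 0.40 ± 0.10 (SE), with an edgeR adjusted p of 0.00385. Gdf11, the gene of a ligand that signals through activin receptors, went from 4.38 ± 0.422 to 14.2 ± 1.72 CPM (SD, n = 3) and rose by 1.7. Inhba, which encodes an activin subunit, rose by 0.69 with an edgeR adjusted p of 0.0191. It was not called without control replicate 2 (0.67, 0.0572), control replicate 3 (0.53, 0.103) or repletion replicate 3 (0.60, 0.0889).

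Of the receptor-activated SMAD genes, Smad5 rose and Smad1 did not pass the test. Smad1 (ENSMUSG00000031681, chromosome 8, 79338395 to 79399518, minus strand) stood at 112, 114 and 125 CPM in control and at 113, 116 and 122 CPM in the repletion group. The groups overlapped almost completely, with a log2 fold change of 0.00 ± 0.10 (SE), a 95% interval of -0.21 to 0.21 and an edgeR adjusted p of 0.998. Smad5 (ENSMUSG00000021540, chromosome 13, 56703010 to 56742377, plus strand) stood at 64.6, 52.7 and 51.6 CPM in control and at 76.5, 79.8 and 78.1 CPM in the repletion group. Its groups did not overlap, and it rose by 0.47 ± 0.12 with an edgeR adjusted p of 0.00393, or by 0.31 once the length and GC trend was removed (0.0320). Smad9, the third receptor-activated SMAD gene of the BMP branch, had 0 to 11 counts per library and was not tested. Smad1 made up 67.4% to 74.1% of the summed CPM per kb of these 3 genes in control and 63.2% to 64.6% in the repletion group. Smad4, the common partner, had 120 ± 13.3 and 129 ± 14.5 CPM (SD, n = 3) and did not pass (0.10, edgeR adjusted p of 0.510).

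Of the inhibitory SMAD genes, Smad6 rose and Smad7 did not pass the test. Smad6 (ENSMUSG00000036867, chromosome 9, 63953076 to 64022059, minus strand), whose product blocks BMP type I receptors, had 159, 168 and 97 counts in control and 216, 249 and 277 in the repletion group, or 10.1, 10.7 and 5.59 CPM against 12.6, 15.7 and 16.6 CPM. Control replicate 3 was the lowest, and the groups did not overlap. Smad6 rose by 0.77 ± 0.23 (SE), the largest of the 5 rises, with an edgeR adjusted p of 0.0122. It was not called without control replicate 3 (0.52, 0.0735) or without repletion replicate 3 (0.68, 0.0607), and across 16 alternatives its adjusted p ran from 0.00249 to 0.0735. Smad7, which blocks both the BMP and the TGF-beta branch, stood at 28.9, 27.4 and 20.9 CPM in control and at 22.1, 27.0 and 19.0 CPM in the repletion group. Its groups overlapped and its log2 fold change of -0.18 ± 0.17 did not pass (edgeR adjusted p of 0.419).

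Of 14 other tested SMAD genes and regulators, 5 rose, 2 fell and 7 did not pass, with a median log2 fold change of 0.11. The shares over all tested features were 20.5% for rises and 19.2% for falls. Tob1, which encodes a repressor of BMP-activated SMADs, fell by 1.2 ± 0.13, from 117, 97.8 and 83.2 CPM to 46.3, 38.9 and 44.5 CPM. Ski, the gene of a SMAD co-repressor, rose by 0.69, and Zeb1, which encodes a SMAD-binding repressor, rose by 0.59. Zeb2, a relative of Zeb1, rose by 0.41 but was not called without control replicate 3 (0.39, edgeR adjusted p of 0.0524) and stood at -0.08 once the length and GC trend was removed (0.571). Skil, a relative of Ski, rose by 0.35, with overlapping groups and an edgeR adjusted p of 0.0441, and missed the threshold under 9 of 16 alternatives, in a range of 0.0226 to 0.505. Among these were the removal of control replicate 1 (0.30, 0.141) or 3 (0.26, 0.216) and of repletion replicate 2 (0.28, 0.131) or 3 (0.35, 0.114). The last of the 5, Smurf2, a ubiquitin ligase gene for SMADs and receptors, passed narrowly (0.27, edgeR adjusted p of 0.0470) and was named after its values had been seen. Zfyve16, the gene of an endosomal SMAD-binding protein, fell by 0.39, and was not called without control replicate 2 (-0.38, 0.0620) or repletion replicate 3 (-0.34, 0.0938).

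Of the ID genes, the best known direct targets of this pathway, none passed edgeR's test, and Id3 alone had an unadjusted p under 0.05 (0.0219). Id1 (ENSMUSG00000042745, chromosome 2, 152736251 to 152737410, plus strand) stood at 35.9, 41.8 and 50.7 CPM in control and at 33.4, 42.0 and 44.4 CPM in the repletion group. The lowest value was in repletion and the highest in control, and the groups overlapped over most of their range. The log2 fold change was -0.10 ± 0.15 (SE) with a 95% interval of -0.41 to 0.21 and an edgeR adjusted p of 0.620, so a rise as large as that of Eng lies outside the interval. Id2 (ENSMUSG00000020644, chromosome 12, 25093799 to 25097140, minus strand) stood at 37.1, 38.8 and 32.4 CPM in control and at 32.5, 33.9 and 46.5 CPM in the repletion group. Only repletion replicate 3 was above the control values, and the log2 fold change was 0.06 ± 0.15 with an interval of -0.25 to 0.37 and an edgeR adjusted p of 0.779.

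Id3 (ENSMUSG00000007872, chromosome 4, 136143497 to 136145755, plus strand) stood at 28.1, 19.1 and 29.2 CPM in control and at 27.1, 37.5 and 39.0 CPM in the repletion group. Repletion replicate 1 lay within the control values and the other 2 above them. The log2 fold change was 0.44 ± 0.17 (SE), with a 95% interval of 0.07 to 0.80, and the edgeR adjusted p of 0.0541 missed the threshold. It passed under 7 of 16 alternatives, among them without repletion replicate 1 (0.58, 0.00726), without control replicate 3 (0.54, 0.0490) and once the length and GC trend was removed (0.53, 0.0279), in a range of 0.00726 to 0.297. Without control replicate 2 the value was 0.25 (0.297). Id4 had 0 counts in all libraries. Summed over the ID genes, the level was 61.8 to 73.3 CPM per kb in control and 57.3 to 79.1 CPM per kb in the repletion group, of which Id1 made up 50% to 59.6% and 48.4% to 51.0%.

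**Figure D3:**
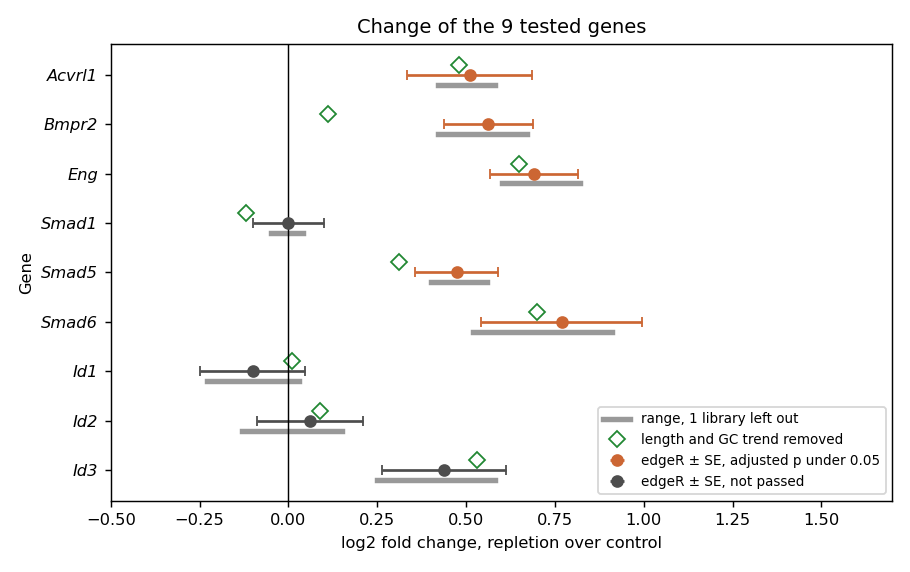
Log2 fold change of repletion over control for the 9 tested genes, with edgeR's estimate ± SE as a circle (orange where the adjusted p was under 0.05), the range with 1 library left out as a grey bar, and the value once the length and GC trend was removed as a green diamond. For Bmpr2 the diamond lies at 0.11, far from the estimate of 0.56, and the values of Id1, Id2 and Smad1 lie around 0.

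Levels per length put the 9 genes in a similar order in both groups. In control, Eng at 46.2 CPM per kb and Id1 at 36.9 led and overlapped each other, followed by Smad1 at 18.7, Id2 at 14.8 and Id3 at 14.2. Id2 and Id3 overlapped, as did Smad6 at 2.74 and Acvrl1 at 2.42, while Smad5 at 7.59 and Bmpr2 at 5.67 stood apart from their neighbours. In the repletion group Eng, at 74.6 CPM per kb, no longer overlapped Id1 at 34.4. Id3 at 19.3, Smad1 at 18.7 and Id2 at 15.4 followed, and Smad1 overlapped both of the others. Smad6 at 4.67 then stood above Acvrl1 at 3.45 in every library.

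Ratios within a library do not depend on the scaling between libraries, and 8 of them were compared. The trend of each library with feature length and GC content was not removed from them. The ratio of Smad5 to Smad1, each per length, was 0.484, 0.392 and 0.348 in control and 0.571, 0.579 and 0.541 in the repletion group. The ratio of Smad6 to Smad7 was 0.494, 0.550 and 0.378 in control and 0.804, 0.819 and 1.23 in the repletion group. The ratio of Eng to Id1 was 1.33, 1.37 and 1.09 in control and 2.86, 1.66 and 2.12 in the repletion group. In these 3 ratios, and in those of Id3 to Id1 and of Smad6 to Id1, every repletion value was above every control value. Among single tested features, the groups did not overlap for 50.3%. That share was not computed for ratios. The two-sided exact permutation p was 0.1 for each of the 5, the smallest that 3 against 3 samples can give. It was 0.160 after Benjamini-Hochberg adjustment over the 8. The ratios were chosen after values had been seen, so these p describe the separation and do not test it. The ratios of Bmpr2 to Acvrl1 (2.36 ± 0.354 and 2.46 ± 0.560, SD, n = 3), Eng to Acvrl1 (19.1 ± 1.41 and 21.8 ± 4.24) and Acvrl1 to Acvr1 (0.345 ± 0.0133 and 0.375 ± 0.0555) overlapped, with exact p of 0.8, 0.5 and 0.4.

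**Figure D4:**
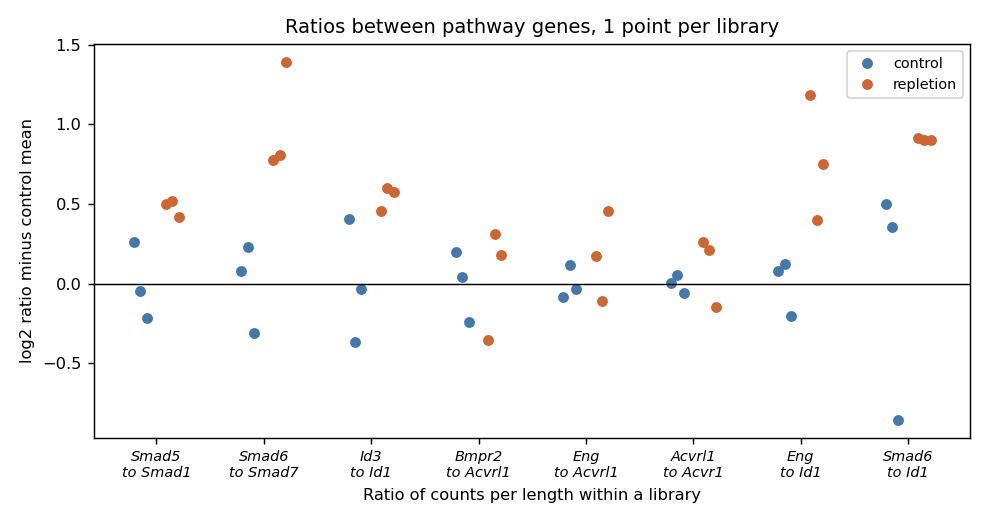
Log2 ratio of counts per length between pairs of pathway genes within each library, minus the mean of the 3 control libraries, with control in blue and repletion in orange. Repletion values lie above all control values for Smad5 to Smad1, Smad6 to Smad7, Id3 to Id1, Eng to Id1 and Smad6 to Id1. They overlap with control for the 3 ratios to or of Acvrl1. The ratios were chosen after values had been seen.

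Other genes that BMP9 or ALK1 is known to raise in endothelium were mostly higher where they could be tested. Of 9 such genes, 5 were tested, of which 4 rose and Smad7 did not pass, with a median log2 fold change of 0.73. Over all tested features, 20.5% rose. The list was chosen with earlier results of these data known. It leaves out Id1, Id2 and Id3, none of which passed, and Smad6, which rose. Edn1, the endothelin 1 gene, stood at 12.6, 9.26 and 6.80 CPM in control and at 29.3, 36.5 and 46.6 CPM in the repletion group, and rose by 1.97 ± 0.21 (SE). Atoh8, a bHLH factor gene, rose by 1.62 ± 0.40 from 16, 21 and 15 counts to 65, 53 and 46. The Notch ligand gene Jag1 rose by 0.73 and the ephrin gene Efnb2 by 0.70. Tmem100, an ALK1 target of arterial endothelium, had 1, 1 and 3 counts in control and none in the repletion group, Hey1 had 0 to 10 counts, and Hey2 and the connexin gene Gja4 had none. Genes known to be lowered by this pathway moved both ways. Of these 4, the chemokine receptor gene Cxcr4 and the Tie2 ligand gene Angpt2 fell by 1.98 and 0.97, while the apelin gene Apln and Esm1 rose by 1.09 and 0.78. Apln went from 567 ± 24.5 to 1205 ± 35.9 CPM (SD, n = 3), and its groups did not overlap.

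Among genes of secreted modulators of BMP ligands, Fst, Bmper and Crim1 rose and Twsg1 fell. Of 15 such genes, 6 were tested, of which 3 rose and 1 fell, with a median log2 fold change of 0.41. Among all tested features, 20.5% rose and 19.2% fell. Fst, the gene of follistatin, which binds activins and some BMPs, stood at 491, 424 and 403 CPM in control and at 611, 714 and 617 CPM in the repletion group, and rose by 0.56. Bmper, which encodes an endothelial BMP-binding protein, went from 8.14 ± 0.280 to 13.2 ± 0.991 CPM (SD, n = 3) and rose by 0.69. Twsg1, the twisted gastrulation gene, fell by 0.64, from 246, 224 and 215 CPM to 136, 164 and 140 CPM. Crim1, a membrane protein gene that tethers BMPs, rose by 0.27 with an edgeR adjusted p of 0.0384. It was not called without control replicate 2 (0.24, 0.121) or 3 (0.20, 0.208), without repletion replicate 1 (0.24, 0.0841) or 3 (0.29, 0.0878), or once the length and GC trend was removed (0.14, 0.254). Crim1 also missed the threshold with upper quartile factors (0.0512), no filter (0.123) or the replicate block (0.0742), and passed under 8 of 16 alternatives. The antagonist genes Nog, Sost, Sostdc1, Cer1 and Mgp had no counts.

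Of 5 tested bHLH genes, 3 rose in edgeR's test and all 5 estimates were above 0, with a median log2 fold change of 0.37. Over all tested features, 20.5% rose and 19.2% fell. Only Tcf4, Tcf3 and Tcf12 encode E proteins, the factors that ID proteins hold, and of these Tcf4 alone rose. Tcf4, an E protein gene, stood at 86.1, 79.6 and 84.9 CPM in control and at 158, 185 and 168 CPM in the repletion group. It rose by 1.03 ± 0.11 (SE), or by 0.41 once the length and GC trend was removed. The other E protein genes Tcf3 and Tcf12 had log2 fold changes of 0.03 and 0.19 with edgeR adjusted p of 0.826 and 0.131, although the groups did not overlap for Tcf12. Without the length and GC trend, Tcf3 stood at -0.08 (0.540) and Tcf12 at -0.18 (0.107). The blood and endothelial bHLH genes Lyl1 and Tal1 rose by 1.19 and 0.37. Tal1, with overlapping groups, was not called without control replicate 2 (0.30, 0.125) or 3 (0.34, 0.0996) or without repletion replicate 2 (0.27, 0.110) or 3 (0.33, 0.108). Tal1 also missed the threshold without the length and GC trend (0.0521) and with the replicate block (0.0556).

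**Figure D5:**
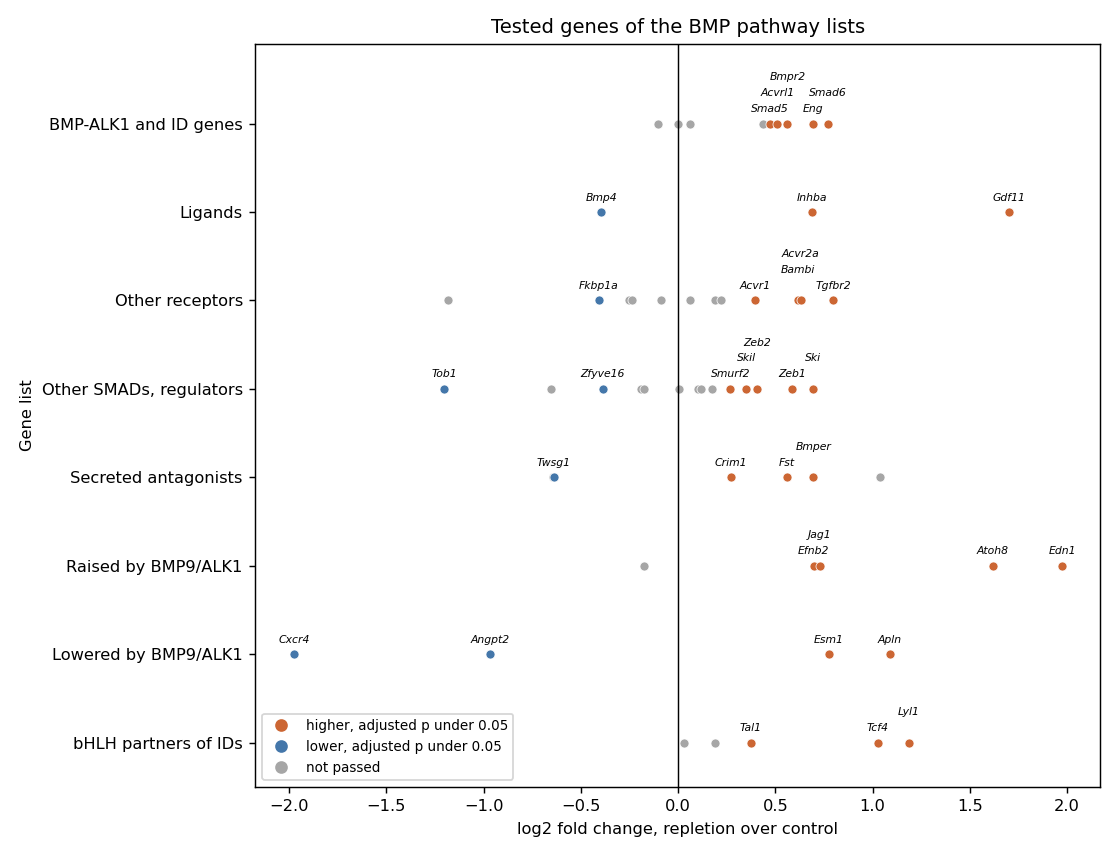
Log2 fold change of each tested gene in 8 lists of the BMP pathway, with 1 point per gene and names on genes that passed an edgeR adjusted p of 0.05 (orange higher, blue lower, grey not passed). Receptor, SMAD and antagonist genes fall on both sides of 0. None of the tested BMP-ALK1 and ID genes or of the bHLH genes passed as lower. The row labelled as bHLH partners of IDs also holds Lyl1 and Tal1, which are not E protein genes.

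The authors' deposited values compare the same 6 samples, so they are not independent support. They gave the same 5 genes an adjusted p under 0.05, as for 21.5% of the 24680 features with such a value. In the authors' deposited table, log2 fold changes were 0.69 for Eng, 0.56 for Bmpr2, 0.51 for Acvrl1, 0.47 for Smad5 and 0.77 for Smad6. The authors' deposited table put Acvrl1 closest to the threshold, with an adjusted p of 0.0458, and Id3 just beyond it at 0.0758. The genes nearest to Id1 in pattern were Rtca, Itgb3, 9930012K11Rik, Pank4 and Dcps. Their 6 centred log2 CPM values lay at a root mean square distance of 0.055 to 0.080 from those of Id1. Their edgeR adjusted p were 0.447 to 0.838. These genes were picked for nearness to Id1, which did not pass, so the lack of a call follows from the choice.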

How the data were processed

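RNA was measured by sequencing in 6 samples, grouped by their titles into 3 control and 3 repletion samples. GRCm38.p6, DESeq2 1.20.0, featureCounts 1.5.0-p3 and HISAT2 2.0.5 are named in the submitters' processing notes with no role stated, and total RNA was the input per the labels' protocols. The deposited table holds raw counts per feature, which are whole numbers and were the values tested. The deposited FPKM equal the count over feature length and 1 constant per sample, within 0.1% for 100% of values, and were not tested. Per the file headers, the table also holds the authors' normalized group means (signal), log2 fold changes and p-values with adjusted p-values. The deposited log2 fold change is repletion over control, by its sign.

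Tests used R 4.3.3 and edgeR 4.0.16. The function filterByExpr kept 13804 features and removed 41428. TMM factors were 0.970 to 1.03. The two-sided quasi-likelihood test of edgeR was used, with Benjamini-Hochberg adjustment over all tested features and a threshold of 0.05. The SE was derived from the F statistic. The biological coefficient of variation was 14.1%. Marker sums use CPM of the unscaled library total. The chi-square per feature between replicates was 9.20 to 26.0, above sampling noise, so no library was a duplicate.

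The genes, lists and ratios were chosen with earlier results of these data known, and the 8 ratios after values had been seen. Named genes were the 10 genes, up to 4 passing genes per list and direction by p, 16 pathway genes fixed by name, and the 5 protein-coding genes nearest to Id1. Alternatives were DESeq2 1.42.0, limma-voom 3.58.1, other scalings (RLE, upper quartile, library size only), other filters (none, 1 CPM in at least 3 samples, protein-coding genes), a replicate block, removal of each library's spline trend (4 degrees of freedom each) with length and GC content, and each library left out. Positions are those of the deposited table and equal GENCODE M21. Shared sequence was sought with BLAST 2.17.0 at 95% identity over at least 100 bases, and of the 10 genes only Bmp6 shared any, with its overlapping neighbour Txndc5. The tests were tried on simulated counts.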

Additional observations from a re-analysis of the deposited data

How the results depend on the processing

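Eng and Smad5 kept their direction and call under all 16 alternatives run, and Id1, Id2 and Smad1 passed under none of them. The count of the 10 genes that rose was 4 to 6 throughout, and none fell in edgeR, DESeq2 or limma-voom (with 0 of 9 lower at an unadjusted p under 0.05 in edgeR). Acvrl1 was not called with no filter (0.47) or with the replicate block (0.51), and ranged from 0.42 to 0.58 with 1 library left out. Bmpr2 was not called once the length and GC trend was removed (0.11). Smad6 ranged from 0.52 to 0.91 with 1 library left out. Id3 passed with library size only (0.50), no filter (0.40), at least 1 CPM in 3 samples (0.45), protein-coding genes only (0.45) and the length and GC trend removed (0.53), and ranged from 0.25 to 0.58 with 1 library left out. With the length and GC trend removed, the median log2 fold change over the features fitted was -0.08, against 0.00 in the main fit. In the fit without that trend, Zeb2 (-0.08), Tcf12 (-0.18), Tcf3 (-0.08) and Id1 (0.01) changed sign. Of these, Zeb2 alone had passed the test. Id1, Id2 and Tcf3 also changed sign with some libraries left out, with values of 0.01 to 0.03, -0.13 to -0.02 and -0.01. The causes were not tested.

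Of 14 SMAD genes and regulators, 3 rose with upper quartile factors, no filter or the replicate block, and 2 with the length and GC trend removed, against 5. With 1 library left out, 2 to 4 of these rose and 1 to 2 fell, 2 to 4 receptor genes rose and 0 to 2 fell, and 1 to 2 ligand genes rose. The labels do not say whether the replicate numbers pair the samples. Deviations from group means correlated at -0.076, -0.033 and 0.055 for same-numbered libraries and at -0.057 to 0.079 for the others. Of the 3 numbers, 1 correlated best with its own, so pairing was not seen but is not excluded. The block gave 2485 rises and 2353 falls over all features, against 2830 and 2654. Bmp6, with 1 count in all, was removed by the filter on low counts, and Acvrl1 and Smad6 had 97 to 281 counts per library.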
